A study of Mus musculus with 18 samples.

Results

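The Pax genes encode transcription factors that share the paired domain, a DNA-binding domain, and that direct the formation of organs in the embryo. The 9 mouse genes of the family, Pax1 to Pax9, were taken by name from RefSeq on GRCm38, out of 21631 protein-coding genes on the autosomes and chromosome X, of which 17276 had a start site. They fall into 4 paralogue groups: Pax1 and Pax9, Pax2, Pax5 and Pax8, Pax3 and Pax7, and Pax4 and Pax6. Each gene was read in 3 parts in all 18 libraries: the start region (the start site and 1 kb to each side), the gene body, and the flanks (20 kb on each side of the gene). The body and flanks leave out the windows of the start region. Levels are the mean reads per 1 kb window divided by the mean of all windows of the library, so that 1 is the genome average and genes of different length can be compared.

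In embryonic stem cells the regulators of later lineages are held silent by Polycomb complexes. PRC2, with its catalytic subunit EZH2, places up to 3 methyl groups on lysine 27 of histone H3, and the trimethylated form, H3K27me3, marks the silenced genes. H3K36me2 is laid down mainly by enzymes of the NSD family over broad parts of the genome and hinders PRC2 on the same histone tail, whereas H3K36me3 marks the bodies of transcribed genes. Pax genes are textbook targets of Polycomb in these cells.

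Chromatin immunoprecipitation and sequencing were done on E14 mouse embryonic stem cells, kept on gelatin in 2i/LIF, a serum-free medium with GSK3 and MEK inhibitors and the cytokine LIF, which holds the cells in a naive state. All cultures carried light, medium or heavy isotope forms of arginine and lysine. There were 9 groups of 2 libraries. Untreated cells gave 10 libraries without a spike-in, in which 3 states of H3K27 (me1, me2 and me3) and 2 of H3K36 (me2 and me3) were measured. The other 8 libraries, for H3K27me3 and H3K36me2, came from cells given 10 µM EPZ-6438 (EPZ6438 in the sample labels), which inhibits EZH2, or the same volume of its solvent DMSO, for 7 days; their chromatin was mixed with 0.05% of Drosophila S2 chromatin as a spike-in. No input library was used here. In bulk chromatin, fewer cells with a mark and less of the mark per cell cannot be told apart. The labels do not say whether the 2 libraries of a group came from separate cultures, so the p-values measure only the spread between these libraries. Window reads ranged from 991909 to 111758166 per library, and the 2 H3K27me3 libraries with the inhibitor were the shallowest, at 991909 and 1777232. Among naive pluripotency genes, 9 of 10 had H3K36me3 over the body above the median of all genes (median 6.87 against 1.98), with Dppa5a as the exception at 1.17 ± 0.133. Of 10 genes of other cell types, 6 had a start site, and all 6 carried H3K27me3 there above the gene median. The lists did not separate fully: 5 of these 10 genes (Eomes, Sox1, Cdx2, Foxa2 and T) had H3K36me3 over the body above the gene median, up to 3.78 at Eomes, and 1 of 7 naive genes, Esrrb, had H3K27me3 of 6.23 at its start.

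Start sites and the sequence before them came from RefSeq (GRCm38.p6), with 10 entries for 7 of the 9 genes; Pax2 has 3 start sites, Pax6 has 2, and the most 5′ one was used unless another is named. For Pax3 and Pax4 the gene end on the 5′ side was used as the start, with the minus strand of both genes taken from general knowledge and not from the deposited files. The 5 stretches below are the 250 bases before a start, written 5′ to 3′ along the gene with every CG dinucleotide in capitals. They are shown to set starts with few CG dinucleotides beside starts with more. They were picked with their H3K27me3 after the inhibitor, given further on, already known. Pax5 and Pax6 start 2, whose levels part from the order of CG counts, are not printed.
Pax2 start 1, chr19:44746351-44746600, plus strand: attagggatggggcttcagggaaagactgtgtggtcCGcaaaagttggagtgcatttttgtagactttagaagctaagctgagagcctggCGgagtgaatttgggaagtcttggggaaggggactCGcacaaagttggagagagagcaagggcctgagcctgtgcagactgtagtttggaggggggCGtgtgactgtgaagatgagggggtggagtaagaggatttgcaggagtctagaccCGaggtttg
Pax2 start 2, chr19:44755502-44755751, plus strand: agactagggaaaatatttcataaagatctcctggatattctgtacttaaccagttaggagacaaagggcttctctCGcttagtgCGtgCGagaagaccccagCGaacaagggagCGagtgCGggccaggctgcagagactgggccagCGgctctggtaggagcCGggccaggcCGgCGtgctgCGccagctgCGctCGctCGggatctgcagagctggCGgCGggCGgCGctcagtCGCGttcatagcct
Pax8, chr2:24475600-24475849, minus strand: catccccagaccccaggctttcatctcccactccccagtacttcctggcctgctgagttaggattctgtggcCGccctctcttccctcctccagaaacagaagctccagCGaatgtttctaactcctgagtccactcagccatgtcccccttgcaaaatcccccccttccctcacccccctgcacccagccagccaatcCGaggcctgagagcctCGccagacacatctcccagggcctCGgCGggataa
Pax7, chr4:139832969-139833218, minus strand: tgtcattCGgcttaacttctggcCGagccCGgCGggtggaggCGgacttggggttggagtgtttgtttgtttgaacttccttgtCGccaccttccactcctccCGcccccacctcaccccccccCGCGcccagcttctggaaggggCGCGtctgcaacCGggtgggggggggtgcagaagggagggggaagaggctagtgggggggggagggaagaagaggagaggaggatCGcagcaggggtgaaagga
Pax6 start 1, chr2:105668646-105668895, plus strand: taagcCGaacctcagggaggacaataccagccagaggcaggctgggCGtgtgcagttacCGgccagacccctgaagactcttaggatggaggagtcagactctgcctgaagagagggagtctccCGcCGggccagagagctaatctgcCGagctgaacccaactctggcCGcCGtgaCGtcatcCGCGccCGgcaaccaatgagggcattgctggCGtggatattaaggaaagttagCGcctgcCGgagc
In the 300 bases from 250 before to 50 after the start, Pax2 start 1 and Pax8 each held 7 CG dinucleotides. The count was 23 at Pax2 start 2, 30 at Pax2 start 3, 23 at Pax5, 18 and 16 at the 2 Pax6 starts, 17 at Pax7, 13 at Pax1 and 11 at Pax9. The median over 21045 promoters of protein-coding genes was 13. The motif TATAAA, searched on both strands, was in none of the 10 stretches and in 12.7% of all promoters. The motif CCAAT, also on both strands, was in those of Pax1, Pax6 start 1 and Pax8 and in 38.5% of all promoters.

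In untreated cells H3K27me3 was high over the start region of every Pax gene. The median of the 9 genes was 10.6 times the library mean, against 0.47 for all protein-coding genes, and all 9 lay above that gene median in both libraries. The 9 genes ranged from 2.97 ± 0.644 (SD, n = 2) at Pax4 to 14.8 ± 3.28 at Pax6. Levels in the 2 untreated libraries follow by paralogue group, replicate 1 first.

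Pax1 and Pax9 pattern the vertebral column and the pharyngeal pouches. Pax1 (NCBI gene 18503, chromosome 2 from 147361930 to 147375049, plus strand) had H3K27me3 of 11.5 and 10.9 at its start. Pax9 (gene 18511, chromosome 12 from 56691693 to 56712824, plus strand) had 7.65 and 7.64, below both Pax1 values. Pax2, Pax5 and Pax8 act in the kidney and the midbrain-hindbrain boundary, and Pax5 also fixes B-cell identity and Pax8 thyroid identity. Pax2 (gene 18504, chromosome 19 from 44746601 to 44838269, plus strand) had 6.12 and 8.01 at its most 5′ start. Pax5 (gene 18507, chromosome 4 from 44524748 to 44710694, minus strand) had 11.2 and 10.97. Pax8 (gene 18510, chromosome 2 from 24420551 to 24475599, minus strand) had 7.57 and 6.14, so that Pax5 stood above Pax8 and this Pax2 start, which overlapped. Pax2 start 2, at 14.4 and 13.8, and Pax2 start 3, at 13.6 in both, stood above Pax5.

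Pax3 and Pax7 act in the neural crest, the dorsal neural tube and muscle progenitors. Pax3 (gene 18505, chromosome 1 from 78101267 to 78197136) had 10.5 and 10.7 and Pax7 (gene 18509, chromosome 4 from 139737059 to 139833530, minus strand) 12.6 and 12.04. Pax4 acts in the endocrine pancreas, and Pax6 in the eye, the forebrain and the pancreas. Pax4 (gene 18506, chromosome 6 from 28442334 to 28449340) had 2.51 and 3.42, the lowest of the family, and Pax6 (gene 18508, chromosome 2 from 105668896 to 105698410, plus strand) 12.5 and 17.2, the highest. The strongest H3K27me3 window of Pax4 and its flanks lay 2.16 kb before the start used, at 11.3 and 10.4. The rank of Pax4 therefore depends on where its start is placed. Even Pax4 lay above 75.4% and 80.7% of genes in the 2 libraries, and the other 8 lay above at least 89.6%. In the order of levels, the replicates of neighbours overlapped for Pax6 and Pax7, for Pax1 and Pax5, and for Pax9, Pax2 and Pax8. They did not overlap between Pax7 and Pax1, Pax5 and Pax3, Pax3 and Pax9, or Pax8 and Pax4.

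H3K27me3 also reached far beyond the start. Over the bodies the means ran from 2.46 ± 0.241 at Pax8 to 6.74 ± 0.276 at Pax1, against a gene median of 0.567. Over the 20 kb flanks they ran from 2.38 ± 0.054 at Pax4 to 5.67 ± 0.388 at Pax7, against 0.898. The order changed between parts of the gene: Pax1 had the highest body but a flank of only 2.10 and 2.84. Pax7 and Pax5 had the highest flanks, at 5.39 and 5.94 and at 5.51 and 5.48. With distance from the start, the median of the family in replicate 1 went from 10.5 within 1 kb to 9.22 at 1 to 3 kb, 6.56 at 3 to 10 kb, 4.31 at 10 to 20 kb and 1.91 at 20 to 50 kb.

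The other marks were unevenly spread over the family. H3K36me2 at the start was highest at Pax8, at 3.18 and 3.47, followed by Pax6 at 2.52 and 2.24 and Pax5 at 2.23 and 1.95. Pax2 had 1.601 and 2.08, Pax3 1.68 and 1.33, Pax1 1.601 and 1.33 and Pax7 1.21 and 0.908. The lowest were Pax9 at 0.761 and 0.681 and Pax4 at 0.390 and 0.422. Neighbours overlapped only in the middle of this order, from Pax5 through Pax2 and Pax3 to Pax1; Pax8, Pax6, Pax7, Pax9 and Pax4 were each apart from all other members. The family median of 1.504 lay near the gene median of 1.28. Pax8 was thus among the lowest starts of the family in H3K27me3 and the highest in H3K36me2, whereas Pax4, at the start used, was lowest in both.

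H3K36me3 over the body, which marks transcription, was below the gene median of 1.98 at all 9 genes, from 0.614 ± 0.0461 at Pax9 to 1.82 at Pax6. At the start, H3K36me3 of Pax6 was 2.84 and 2.64, above 93.5% and 91.7% of genes, and that of Pax4 was 0.196 and 0.230. The lower methylation states of H3K27 were sparse: H3K27me1 at the start ranged from 0.121 to 0.906 over genes and libraries, with 8 of 9 genes below the gene median in both libraries and Pax4 (0.783 and 0.906) as the exception. H3K27me2 ranged from 0.172 to 0.994 there, again with 8 of 9 below the gene median, and Pax8, at 0.994 and 0.924, was the one above it.

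**Figure D1:**
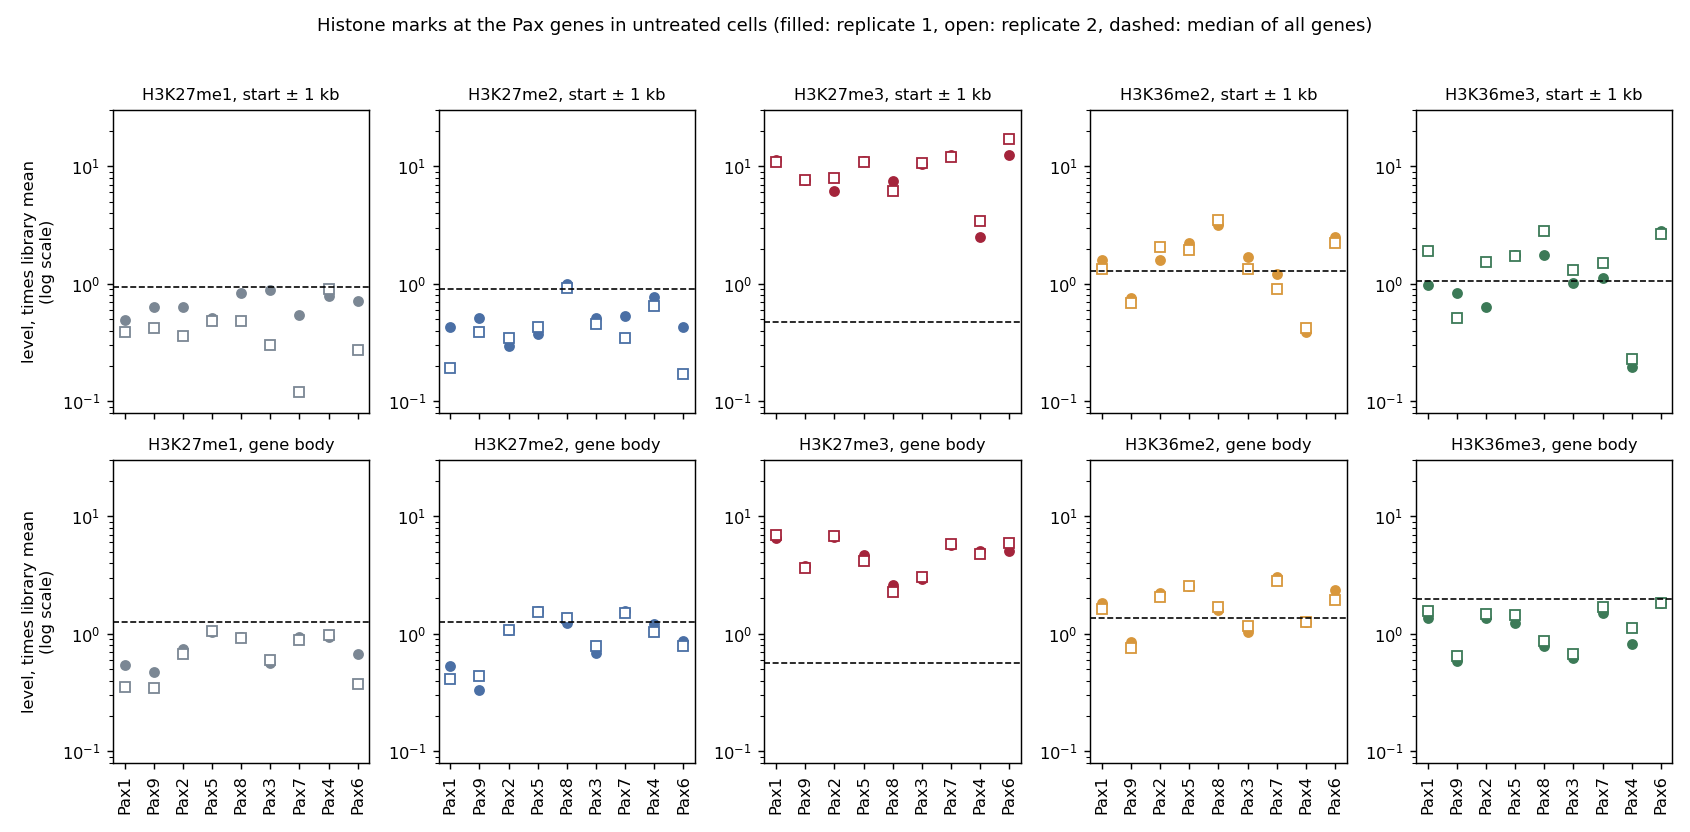
Levels of the 5 marks at the start region and over the body of each Pax gene in untreated cells, as times the library mean; points are the 2 libraries of a mark. H3K27me3 at the start is lowest at Pax4 (2.51 and 3.42) and highest at Pax6 (12.5 and 17.2), and H3K36me2 there is highest at Pax8.

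The authors' replicated peaks, called from the untreated libraries, showed how far each domain extends. An H3K27me3 peak lay over the start of 9 of 9 Pax genes, against 30.6% of all genes with a start site. H3K27me3 peaks covered at least 50% of the body in 9 of 9, against 27.4% of genes. An H3K36me2 peak lay over the start of 6 of 9 (background 50.0%), all but Pax4, Pax7 and Pax9, and covered at least 50% of the body of 6 of 9 (background 47.8%). No Pax start lay in an H3K27me1 peak (background 25.6%) or an H3K27me2 peak (background 30.3%).

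The H3K27me3 peak over the start of Pax7 was 182.5 kb wide and ran from 119 kb before to 63.5 kb after the start (chr4:139769501-139952000). It ranked 80 by width among the 5289 genes whose start lies in an H3K27me3 peak, whose median width was 18 kb. Those of Pax2 (112 kb, rank 268) and Pax5 (109.5 kb, rank 278) were also long. The widths were 55 kb at Pax3, 51 kb at Pax6, 43.5 kb at Pax9, 28.5 kb at Pax1, 27.5 kb at Pax4 and 17.5 kb at Pax8. Pax8 was the one member below the median width, although its body was 92.7% covered, by 3 separate peaks. These widths depend on the gaps in the list: with peaks less than 3 kb apart joined, the one over the start of Pax8 was 101.5 kb wide, that of Pax3 142.5 kb and that of Pax5 130.5 kb. That of Pax2 was then 257 kb, wider than that of Pax7, and the other 5 kept their widths. The least covered body was that of Pax9, at 69.2%.

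H3K36me2 peaks over the starts, as listed, measured 29 kb at Pax6, 27 kb at Pax2, 15.5 kb at Pax8, 14.5 kb at Pax1, 11.5 kb at Pax3 and 10 kb at Pax5, all below the median of 40 kb over 8640 genes. With peaks less than 3 kb apart joined, that of Pax2 was 129 kb wide and that of Pax6 52 kb, above that median of unjoined peaks, and the other 4 kept their widths. At Pax5 the 10 kb peak stood alone around the start, and the next H3K36me2 peaks, of 82.5 and 81.5 kb, lay from 31.2 to 113.7 kb and from 115.7 kb into the gene to beyond its end. At Pax7 the start lay in a gap instead: one H3K36me2 peak ended 1.03 kb before it and the next began 9.47 kb after it and ran for 103 kb. At Pax9 an H3K36me2 peak of 5.5 kb ended 1.97 kb before the start used, over the 5′ end of the gene record. Body coverage by H3K36me2 peaks was 100% at Pax1, 93.2% at Pax6, 89.6% at Pax7, 85.2% at Pax5 and 82.0% at Pax2. It was 57.3% at Pax8, 25.7% at Pax3, 8.56% at Pax9 and 0% at Pax4. H3K27me2 peaks covered 69.4% of the body of Pax7, 64.4% of that of Pax8 and 62.3% of that of Pax5, in the parts away from the start. These 3 were the genes with at least 50% of the body in H3K27me2 peaks (background 42.6%), and 0 of 9 had that share in H3K27me1 peaks (background 40.6%).

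**Figure D2:**
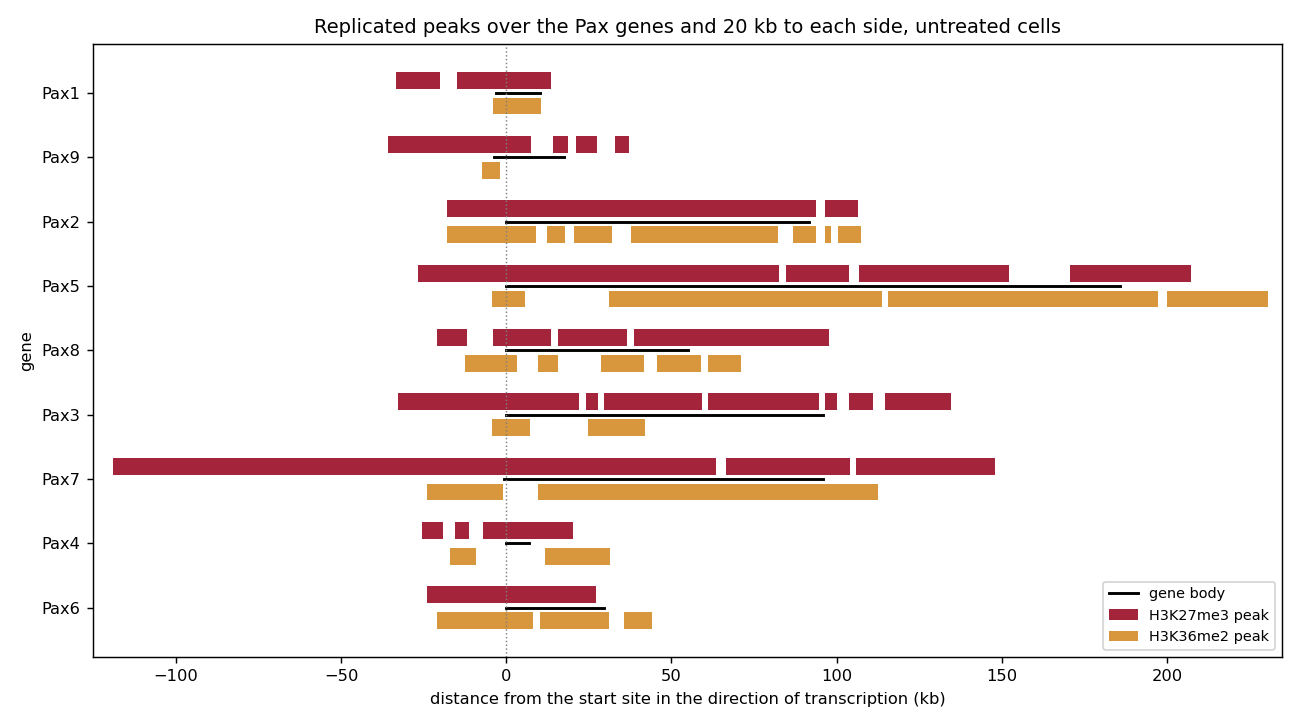
Extent of the replicated H3K27me3 and H3K36me2 peaks over each Pax gene and 20 kb to each side in untreated cells; the horizontal axis is the distance from the start in the direction of transcription (kb) and the black line is the gene body. Peaks are drawn as listed, with gaps under 3 kb kept: the H3K27me3 peak of Pax7 spans 182.5 kb, while H3K36me2 peaks over the starts span 10 to 29 kb (up to 129 kb with such gaps joined) and leave out Pax4, Pax7 and Pax9.

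Within a locus (the gene with 20 kb on each side, in 1 kb windows) H3K27me3 and H3K36me2 could run together or apart. As a description over neighbouring windows of the same libraries, which are not independent, the Spearman rho of the 2 marks was 0.71 at Pax1 (53 windows), 0.71 at Pax9 (61 windows) and 0.64 at Pax6 (69 windows). It was -0.33 at Pax7 (137 windows), -0.23 at Pax5 (226 windows) and -0.16 at Pax4 (47 windows). The rho of H3K27me3 with H3K27me2 was below 0 at all 9 loci, from -0.71 at Pax7 to -0.07 at Pax9. That of H3K27me3 with H3K36me3 ran from -0.20 at Pax4 to 0.87 at Pax1. That of H3K36me2 with H3K36me3 ran from 0.52 at Pax7 to 0.86 at Pax1, so running together was not particular to H3K27me3 and H3K36me2. The marks come from separate libraries; what the points share is the windows, with their base composition.

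The inhibitor lowered H3K27me3 at every Pax gene. On the spike-in scale (window reads times the factor of the library) the mean over the genome was 48.7 and 35.7 after DMSO and 0.0911 and 0.0668 after the inhibitor, 534-fold lower. Over the start regions the 9 genes were 155-fold (Pax7) to 1570-fold (Pax8) lower, over the bodies 291-fold (Pax7) to 1140-fold (Pax4) lower, and over the flanks 357-fold (Pax3) to 1463-fold (Pax1) lower. With limma on log2(value + 1), which understates the change of low values, 9 of 9 genes fell at an adjusted p under 0.05 in each part of the gene, and so they did with limma-voom on the recovered reads. So did 99.2% of all genes at the start, 99.9% over bodies and 100% over flanks. At the start the log2 change had a median of -7.48 over the family, against -5.33 over all 14138 genes tested. The medians over all genes were -4.80 for bodies and -5.20 for flanks, and those of the family -7.19 and -7.01. At the start this gap depends on the pseudocount, which holds back low genes more: with limma-voom the change at the start of Pax3, the median of the family, was -8.12, against -8.40 over all genes. For bodies and flanks the medians over all genes moved as well, to -7.28 and -7.65 with a pseudocount of 0.1. With limma-voom they were -8.47 and -8.87. The gaps over bodies and flanks can therefore not be read as a larger fall at the Pax genes. The order within the family depends on the pseudocount too, since Pax4 had the smallest log2 change in the limma fit (-6.68) but was 801-fold lower, and Pax7 had the smallest fold.

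The values at the start show what was left. Pax7 had 969 and 595 scaled reads per window after DMSO and 5.81 and 4.26 after the inhibitor, from 48 and 86 reads (log2 change -6.99 ± 0.36, SE; limma adjusted p = 3.41e-06). Pax1 went from 752 and 517 to 3.63 and 3.12, from 30 and 63 reads (-7.16 ± 0.32; limma adjusted p = 2.42e-06). Pax8 went from 520 and 361 to 0.363 and 0.198, from 3 and 4 reads (-8.41 ± 0.32; limma adjusted p = 2.39e-06). Inhibitor and DMSO libraries were far apart at all 9 starts.

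Pax2 went from 571 and 393 to 0.363 and 0.545, from 3 and 11 reads. Pax6 went from 954 and 659 to 2.78 and 4.21, and Pax3 from 764 and 612 to 1.69 and 2.87. Pax5 fell from 853 and 507 to 1.57 and 1.58, and Pax9 from 496 and 406 to 1.45 and 2.08. Pax4, with 131 and 103 after DMSO, kept 2 reads in one inhibitor library and 1 in the other. The ratio at Pax4 was therefore loose. Taken as the mean of both DMSO libraries over each inhibitor library, it was 483-fold for inhibitor replicate 1, with a 95% counting interval (exact Poisson) of 134 to 3984. For inhibitor replicate 2 it was 2359-fold (423 to 93172). It was 1213-fold (415 to 5882) and 2224-fold (869 to 8162) at Pax8, and 1327-fold (454 to 6433) and 884-fold (494 to 1772) at Pax2. The intervals of these 3 genes overlapped, so their order cannot be read. The interval was 455 to 1150 for the body of Pax1 in replicate 1, from 20 reads, and 259 to 318 for that of Pax7, from 372 reads. These intervals cover the counting error of the inhibitor library only and leave out that of the DMSO libraries.

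Because almost all H3K27me3 was lost, the distribution of the remaining reads was then compared on levels relative to the library mean. It differed between the genes. On this scale the median start of all genes rose too, from 0.672 and 0.661 after DMSO to 1.33 and 1.48 after the inhibitor. A rise relative to the library mean was therefore not particular to Pax starts. At the start the inhibitor libraries were both higher than either DMSO library at 5 Pax genes, Pax1, Pax3, Pax6, Pax7 and Pax9 (background 34.2% of genes), and both lower at 3, Pax2, Pax4 and Pax8 (background 29.7%). Those of Pax5 overlapped. Several of these are within counting error in inhibitor replicate 1, whose intervals took in a DMSO value at Pax3 (10.2 to 31.2), Pax6 (19.4 to 45.8), Pax9 (8.23 to 27.8), Pax2 and Pax8 (0.821 to 11.6 each). So did that of Pax4, with 2.69 and 2.88 after DMSO and, from 2 reads and 1 read, 2.66 (0.322 to 9.59) and 0.741. In replicate 2 the intervals of Pax2 (4.07 to 14.6) and Pax4 (0.0188 to 4.13) took in DMSO values too. Neither inhibitor library thus set the starts of Pax2 and Pax4 apart from DMSO beyond counting error.

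Pax7 had 19.9 and 16.7 with DMSO and 63.7 in each inhibitor library, the largest gain of the family (log2 change 1.75 ± 0.26; limma adjusted p = 0.0651). Pax1 had 15.4 and 14.5, then 39.8 and 46.7 (1.47 ± 0.26; limma adjusted p = 0.0655). Pax6 had 19.6 and 18.5, then 30.5 and 63.0 (1.17 ± 0.44; limma adjusted p = 0.159). No start passed the limma test: it called 0 of the 9 and 0% of 14138 genes, with 4744 at an unadjusted p under 0.05. With 1 inhibitor library left out, most of the 9 starts were called, and so were most starts of all genes tested. Those calls are therefore not particular to the family, and the lone library is assumed there to vary as the DMSO pair does.

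Pax9 had 10.2 and 11.4, then 15.9 and 31.1, and Pax3 had 15.7 and 17.1, then 18.6 and 43.0. In both genes inhibitor replicate 2 stood well above replicate 1. Pax8, in contrast, had 10.7 and 10.1, then 3.98 and 2.96 (-1.36 ± 0.27; limma adjusted p = 0.0716). Pax2 had 11.7 and 10.998, then 3.98 and 8.15, at its most 5′ start (-0.87 ± 0.40; limma adjusted p = 0.214).

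Over the flanks the same libraries gave another picture. Limma called 5 of 9 flanks lower relative to the library mean, those of Pax1, Pax4, Pax7, Pax8 and Pax9 (background 10.8% lower, 34.3% in either direction), and none higher (background 23.6% higher). The flank of Pax7 went from 6.12 and 6.03 to 2.85 and 2.82 (log2 change -0.88 ± 0.09; limma adjusted p = 0.00581) and that of Pax9 from 3.80 and 3.84 to 2.06 and 2.00 (-0.67 ± 0.09; limma adjusted p = 0.00765). That of Pax1 went from 2.12 and 2.28 to 0.597 and 1.07 (-0.81 ± 0.15; limma adjusted p = 0.0141). Fewer flanks were called with 1 DMSO library left out, among the 9 as among all genes. With 1 inhibitor library left out the calls over all genes rose instead. The flank of Pax3 had the highest positive change, at 4.61 and 5.04, then 5.45 and 9.54 (0.50 ± 0.24; limma adjusted p = 0.156).

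Over the bodies, that of Pax7 rose relative to the library mean, from 6.48 and 6.36 to 10.4 and 13.7 (log2 change 0.80 ± 0.16; limma adjusted p = 0.0304; background 30.6% higher). That of Pax4 fell, from 5.33 and 5.49 to 2.21 and 2.96 (-0.85 ± 0.14; limma adjusted p = 0.0225; background 10.7% lower). These were 2 bodies called of the 9, against 41.3% of all genes. With 1 DMSO library left out no body was called, of the 9 or of all genes. With 1 inhibitor library left out most bodies were called, of the 9 as of all genes. The body of Pax9, at 4.80 and 5.27 and then 6.57 and 9.75, did not pass (limma adjusted p = 0.0989).

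**Figure D3:**
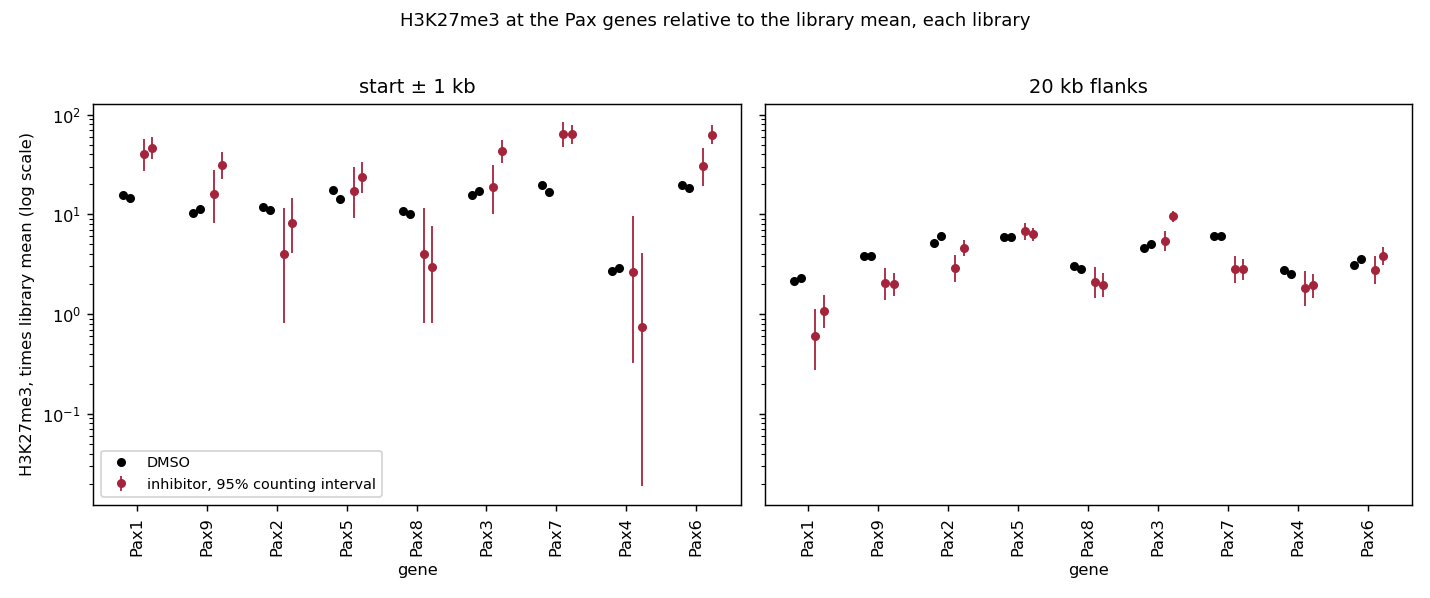
H3K27me3 relative to the library mean (log axis) at the start regions and over the 20 kb flanks of the Pax genes, in each DMSO library (black) and each inhibitor library (red, with the 95% counting interval). At Pax7 the inhibitor libraries stand at 63.7 over the start, above DMSO, and at 2.85 and 2.82 over the flanks, below DMSO.

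The contrast between start and flank was tested directly, as the log2 ratio of both within each library; this test was added after the values had been seen. The ratio of Pax7 was 3.25 and 2.76 in the DMSO libraries and 22.3 and 22.6 with the inhibitor (log2 difference 2.64 ± 0.31; limma adjusted p = 0.0996). That of Pax1 was 7.28 and 6.36, then 66.7 and 43.4 (2.28 ± 0.31; limma adjusted p = 0.0996). Both inhibitor ratios lay above both DMSO ratios at 5 genes, Pax1, Pax3, Pax6, Pax7 and Pax9 (background 30.6%). At Pax3, with 3.41 and 3.40 after DMSO and 3.41 and 4.51 after the inhibitor, replicate 1 was no higher than DMSO within counting error, and the change turned negative (-0.16) with windows starting 500 bp later.

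The ratio of Pax9 was 2.68 and 2.97, then 7.74 and 15.6, and that of Pax6 6.34 and 5.17, then 10.9 and 16.4. Those of Pax2 (2.27 and 1.80, then 1.36 and 1.77) and Pax8 (3.54 in both, then 1.89 and 1.5) lay below DMSO (background 29.0%). At Pax2, inhibitor replicate 2, from 11 start reads, was no lower than DMSO within counting error. The change at Pax2 turned positive with the most 3′ start. Limma called 0 of the 9 and 0% of 14136 genes, with 3786 at an unadjusted p under 0.05. With 1 inhibitor library left out it called most of the 9, but also most of all genes tested, so this is not particular to the family.

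Where the remaining reads lay was described locus by locus, with no background over other genes. For each locus the 1 kb window with the highest H3K27me3 was placed in inhibitor replicate 2, and the reads within 2 kb of it were then counted in the other libraries, of which inhibitor replicate 1 had no part in the placing. The placing itself raises the share of inhibitor replicate 2, so only replicate 1 can be set against DMSO; this reading was chosen after the profiles had been seen. At Pax7 the window lay 4.47 kb into the gene (chr4:139828001-139829000). The stretch, 3.65% of the locus, held 32.8% of the reads of the locus in inhibitor replicate 1 and 34.6% in replicate 2, against 9.76% and 9.81% after DMSO. Its level was 80.7 and 107 times the library mean after the inhibitor and 17.6 and 17.2 after DMSO.

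At Pax5 the stretch lay not at the start but 7.19 kb into the gene, where it overlaps the non-coding gene 5730488B01Rik (chr4:44703001-44704000). It held 25.4% and 37.7% of the locus reads after the inhibitor and 6.41% and 6.27% after DMSO, in 2.21% of the windows. At Pax1 it lay 1.01 kb after the start (chr2:147365501-147366500), with 72.9% and 71.1% against 30.9% and 28.4%. At Pax9 it lay 1.97 kb before the start used (chr12:56693001-56694000), with 58.9% and 73.3% against 27.7% and 27.02%. This window is inside the gene record of Pax9, where the non-coding gene Gm15524 overlaps it.

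At Pax6 the window was 0.604 kb after the start (chr2:105669001-105670000), with 43.2% and 51.9% against 25.1% and 26.5%. At Pax3 the strongest window of replicate 2 lay 19.4 kb before the start, in the neighbouring gene Gm2102 (chr1:78216001-78217000). There inhibitor replicate 1 held 8.89% of the locus reads, close to the 7.00% and 6.46% after DMSO, and replicate 2 held 18.4%. The place was not new with the inhibitor: in the untreated and DMSO libraries the strongest window lay 19.9 kb before the start. It is at the edge of the 20 kb flank, so the stretch was cut short, to 2.21% of the windows. In replicate 1 the strongest window of Pax3 was 1.14 kb after its start. Pax3 was the one gene whose 2 inhibitor libraries placed the window more than 1.01 kb apart.

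At Pax4 and Pax8 the shares lay near or below those after DMSO. At Pax8 (chr2:24474001-24475000, 1.10 kb after the start) the stretch held 21.7% and 11.4% after the inhibitor, from 15 and 10 reads, and 21.2% and 20.0% after DMSO. At Pax4 (chr6:28450501-28451500, 1.66 kb before the start) it held 17.6% and 15.6%, from 6 and 10 reads, and 23.5% and 21.7% after DMSO.

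Pax2 differed between its starts. Its strongest window lay 10.4 kb after the most 5′ start (chr19:44756501-44757500), over start 3, and held 23.4% and 32.2% of the locus reads against 8.41% and 7.69% after DMSO. At start 3 the level was 69.0 and 126 after the inhibitor and 21.1 and 20.9 after DMSO, and at start 2 it was 41.2 and 102 against 19.5 and 19.9. At start 1 it was 3.98 and 8.15, so that start 1 stood apart from the others, whose libraries overlapped and whose start regions share part of their reads. Start 1 was the lowest of the 3 without the inhibitor too, at 11.7 and 10.998 after DMSO. In untreated cells it had 6.12 and 8.01, against 14.4 and 13.8 at start 2 and 13.6 in both libraries at start 3. H3K36me2 ran the other way in untreated cells, at 1.601 and 2.08 at start 1, 1.13 and 1.01 at start 2 and 0.839 and 0.713 at start 3. At Pax6, likewise, start 1 had 30.5 and 63.0 after the inhibitor, and start 2, which lies 13.6 kb further in, had 7.97 and 5.19 (7.57 and 5.29 after DMSO).

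The levels can be set beside the sequences printed above. Among the 10 starts with an entry, those with 7 CG dinucleotides in 300 bases, Pax2 start 1 and Pax8, had the lowest H3K27me3 after the inhibitor, 2.96 to 8.15 times the library mean, together with Pax6 start 2, which has 16. Pax2 starts 2 and 3, with 23 and 30, had 41.2 to 126. They lie 9.15 and 10.3 kb after start 1, so their start regions overlap and share part of their reads. Pax5, with 23, had 17.3 and 23.7 at its start, less than Pax7 with 17. As a description over 10 starts of 7 genes, which share loci and libraries, the Spearman rho of the CG count was 0.77 with H3K27me3 after the inhibitor, 0.81 after DMSO and 0.81 in untreated cells. It was -0.28 with untreated H3K36me2.

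**Figure D4:**
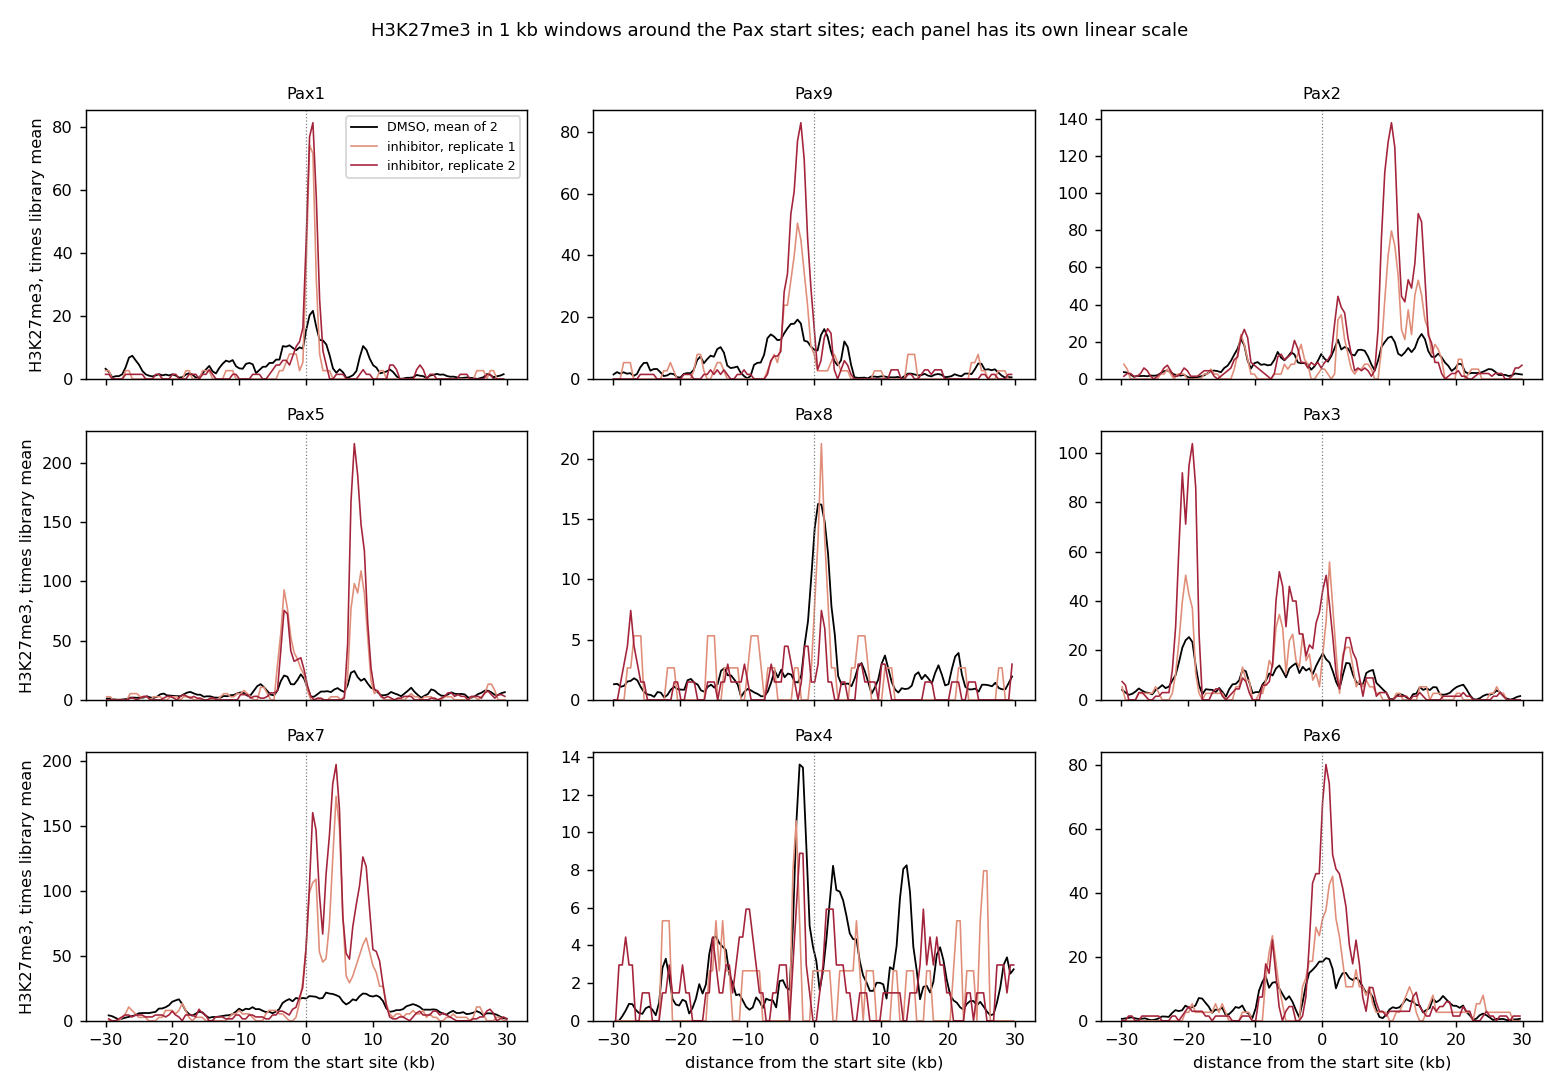
H3K27me3 relative to the library mean in 1 kb windows within 30 kb of each Pax start, for the mean of the DMSO libraries (black) and each inhibitor library; every panel has its own linear scale. Both inhibitor libraries peak 4.47 kb into Pax7 and 10.4 kb into Pax2, and at Pax5 replicate 1 peaks at 8.19 kb and replicate 2 at 7.19 kb, while Pax4 and Pax8 show no window far above DMSO.

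H3K36me2 was then followed at the same genes. On the spike-in scale its mean over the genome was 323 and 213 after DMSO and 404 and 227 after the inhibitor. Limma called 0 of 9 Pax genes at the start (background 0.431%, with 0.0180% lower and 0.413% higher), over the body (background 0.195%, with 0.00514% lower and 0.190% higher) and over the flanks (background 0%). In those 3 fits 438, 346 and 123 genes had an unadjusted p under 0.05, and limma-voom on the recovered reads called 0 of the 9 in each. Changes at the starts ran from -0.32 ± 0.58 (SE) at Pax6 to 0.35 ± 0.58 at Pax7 on the log2 scale, each smaller than its SE.

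Relative to the library mean the spread was smaller. Limma again called 0 of 9 in each part of the gene and 0% of all genes, with 2754, 3423 and 7502 genes at an unadjusted p under 0.05. At the start the inhibitor libraries were both lower than either DMSO library at Pax2, Pax5, Pax6 and Pax8 (background 38.5%), and both higher at none (background 11.3%). Pax6 had 2.56 and 2.66, then 1.67 and 1.98 (log2 change -0.36 ± 0.11; limma adjusted p = 0.207). Pax8, the start highest in H3K36me2, had 2.62 and 3.18, then 2.55 and 2.43. Pax7 and Pax9, whose starts lie outside H3K36me2 peaks, had 1.03 and 1.17, then 1.08 and 1.36, and 0.749 and 0.704, then 0.719 and 0.738, with overlapping arms.

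Over the flanks the inhibitor libraries lay above DMSO at Pax1, Pax3, Pax8 and Pax9 (background 19.9%) and below at Pax2 and Pax6 (background 46.1%). The flank of Pax1 went from 0.765 and 0.775 to 1.10 and 0.990 (log2 change 0.21 ± 0.04) and that of Pax9 from 0.870 and 0.873 to 1.16 in both (0.21 ± 0.03), each with a limma adjusted p of 0.0879. That of Pax3 went from 0.849 and 0.820 to 1.10 and 1.00 (0.16 ± 0.04; limma adjusted p = 0.0882). These 3 flanks had the lowest H3K36me2 of the family after DMSO, at 0.873 or below, while the other 6 had 1.42 or more.

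Over the bodies Pax3, Pax4, Pax8 and Pax9 lay above DMSO (background 16.3%) and Pax2, Pax6 and Pax7 below (background 37.2%). The body of Pax4 had the largest value, from 1.32 and 1.42 to 1.86 and 1.96 (0.30 ± 0.05; limma adjusted p = 0.277). The ratio of start to flank was below DMSO at Pax1, Pax5, Pax6, Pax8 and Pax9 (background 23.8%) and above at Pax7 (background 14.3%). At Pax1 it went from 1.80 and 2.35 to 1.19 and 1.40. Limma called none of these ratios for the 9 genes, with 0% of 16708 genes called and 1403 at an unadjusted p under 0.05.

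**Figure D5:**
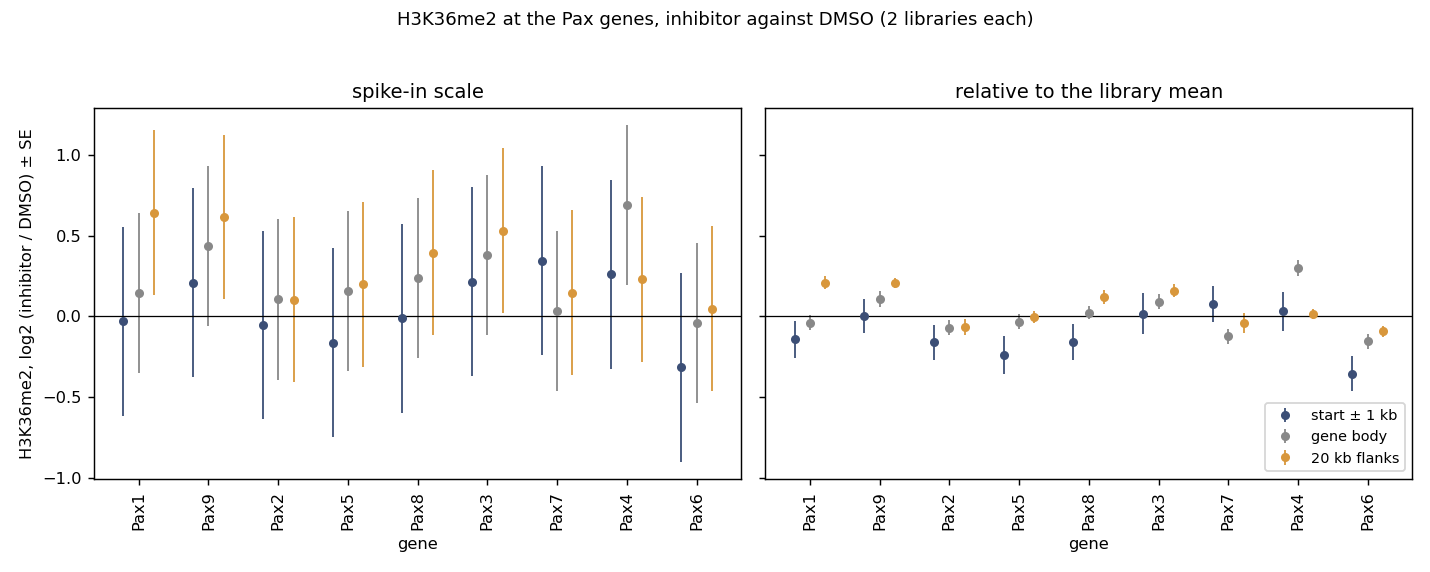
Change of H3K36me2 at the start, body and flanks of the Pax genes (log2 of level + 1, inhibitor minus DMSO, 2 libraries each; bars are the SE of the limma fit) on the spike-in scale and relative to the library mean. On the spike-in scale the SE is 0.50 to 0.58 and the changes at all 9 starts are smaller than it; relative to the library mean the flanks of Pax1 and Pax9 (0.21 each) and the body of Pax4 (0.30) are the 3 highest values.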

How the data were processed

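The study measured histone marks by ChIP-seq in 18 libraries of E14 mouse embryonic stem cells. The authors trimmed, aligned and called peaks with tools that the submitters' processing notes name as Trim Galore 0.4.2, Bowtie2 2.2.6.2 and SICER, with the builds mm10 and dm3; their settings are not given in the sources used here. The tracks as deposited hold log2(1 + scaled reads) in 1 kb windows every 500 bp, a reading taken from their values, since 100% of them came out as whole reads times 1 step per library (tolerance 0.02 reads). The peak lists as deposited by the authors hold replicated peaks with a score per peak, used only to describe peaks.

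Reads were recovered from the steps, and every other window was kept so that windows do not overlap. Levels are reads per window over the library mean. The spike-in scale keeps the authors' step of each library, on the assumption that it carries the Drosophila factor. Fits used limma 3.58.1 in R 4.3.3 on log2(value + 1) over all protein-coding genes with at least 10 window reads over the 4 libraries, with the inhibitor and DMSO libraries of 1 mark and no covariate, and Benjamini-Hochberg adjustment at 0.05; limma-voom on the recovered reads, other scalings, filters, windows, pseudocounts and left-out libraries were alternatives. The limma fit was run on simulated counts for the H3K36me2 start regions only, and not for H3K27me3 or the ratio of start to flank. Counting intervals are exact Poisson at 95% and cover the counting error of the inhibitor library only. An exact permutation test of 2 against 2 libraries cannot give a p below 0.333, so none is used. All 9 members are named. The other genes named come from lists, from the neighbours of the members, or from the genes nearest to the family in level. One further gene list is not reported here. The members and lists were chosen with earlier results of these data known. Python 3.11.15 with numpy 2.4.6, pandas 2.3.3, scipy 1.17.1 and matplotlib 3.10.9 did the rest.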

Additional observations from a re-analysis of the deposited data

How the results depend on the processing

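The fall of H3K27me3 on the spike-in scale was called at 9 of 9 genes in each part under every alternative but 1: relative to the library mean, 0 starts, 1 body and 5 flanks were called lower. There the log2 change at the start was 1.47 at Pax1, 0.75 at Pax3, 0.34 at Pax5, 1.17 at Pax6, 1.75 at Pax7 and 0.99 at Pax9. Relative calls at the start, 0 in the report, were 2 with no filter, 3 among genes above 0 in all 4 libraries, 1 with 2 kb to each side, and 0 to 8 with 1 library left out. Bodies, 2 in the report, gave 0 to 6 with 1 library left out. Flanks, 5 in the report, gave 3 with a pseudocount of 0.1 and 2 to 6 with 1 library left out. The ratio of start to flank, 0 in the report, gave 0 to 8 with 1 library left out. With the most 3′ start, Pax2 changed by 2.10 relative to the library mean and by 2.63 in the ratio, and Pax6 by -0.0903 in the ratio. The ratio also changed sign at Pax3 with windows starting 500 bp later (-0.16), and with a 10 kb flank at Pax4 (0.0126) and Pax5 (-0.27). With 1 inhibitor library left out it ran from -0.81 to 0.31 at Pax4 and from -0.0356 to 0.48 at Pax5. The untreated family median of H3K27me3 at the start, 10.6, was 9.31 with windows starting 500 bp later, 9.09 with 2 kb to each side, 22.6 relative to the gene median and 15.0 in the DMSO libraries; that of H3K36me2, 1.504, was 1.73 and 1.18 under the first and the third of these. The median width of the H3K27me3 peak over a start, 51 kb, was 101.5 kb with peaks less than 3 kb apart joined. The cause was not tested.

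Over all genes, relative calls of H3K27me3 at the start went from 0 to 1405 of 17276 with no filter. Calls were 3747 of 9579 among genes above 0 in all 4 libraries and 1200 of 15953 with 2 kb to each side. With 1 inhibitor library left out, most genes were called at starts, bodies and flanks and in the ratio. With 1 DMSO library left out, none was called at starts, at bodies or in the ratio, and fewer flanks were called than with all 4 libraries. The low depth of the inhibitor H3K27me3 libraries limits all relative values at Pax2 start 1, Pax4 and Pax8.

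Replicate numbers are shared between arms, but the labels do not say that they pair libraries, and there are only 2 pairs. The correlation of deviations on the spike-in scale was 0.0271 to 0.134 over parts of the gene for H3K27me3 and 0.155 to 0.627 for H3K36me2. Relative to the library mean it was 0.0247 to 0.121 and 0.205 to 0.789. With the replicate block, H3K27me3 calls relative to the library mean were 1 at starts and 1 at bodies, and 2 for the ratio. H3K36me2 calls with the block were 1 at bodies and 4 at flanks on the spike-in scale, and 5 at flanks relative to the library mean. Over all genes the block gave 1662, 4705 and 620 calls for the relative starts, bodies and ratio of H3K27me3. For H3K36me2 it gave 6, 1883 and 4098 on the spike-in scale (72, 38 and 0 without it) and 309 starts and 12709 flanks relative to the library mean (0 without it).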

Other observations

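The protein-coding genes next to the Pax genes were, but for 1, also below the gene median of 1.98 in H3K36me3, the mark of transcription. The level over the body in the 2 untreated libraries was 0.739 and 0.642 at Elp4, which neighbours Pax6, 0.761 and 0.913 at Psd4 near Pax8, 0.411 and 0.379 at Slc25a21 near Pax9 and 0.538 and 0.230 at Gm2102 near Pax3. Arf5, which encodes a small GTPase of the Golgi and lies near Pax4, stood apart at 7.38 and 8.56, and Fscn3, also near Pax4, had 1.37 and 1.03.

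Over the start regions of all 18 libraries, likeness to the Pax family was measured as the Euclidean distance of log2 levels (0.1 added) from the median profile of the 9 genes. The nearest genes outside the family were Cacna1e at 0.861, Robo3 at 1.07, Grm6 at 1.16, Tac1 at 1.17 and Vwc2 at 1.17, against a median of 11.9 over 17276 genes. Of the members, Pax3 was nearest at 0.967, and Pax8 at 5.04 and Pax4 at 9.20 were the farthest. Among pairs, Pax1 and Pax3 were closest at 1.84, and Pax4 and Pax6, which are paralogues, were farthest at 11.7, with Pax4 read at its gene end.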
